A study of Mus musculus with 9 samples.

Results

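The clustered protocadherins were taken as every gene of the deposited tables whose symbol begins with Pcdha, Pcdhb or Pcdhg. There were 58 such genes among 23038, of which 14 belonged to the alpha cluster, 22 to the beta cluster and 22 to the gamma cluster. They were followed across 3 populations of fluorescent mechanosensory neurons sorted from dorsal root ganglia (DRG) of neonatal mice of both sexes on a mixed C57/Sv129 background, with 3 bulk RNA-seq samples per population.

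Rx3-/-;PV:tdT neurons, called mutant PV neurons below, were homozygous for a Runx3 mutant allele and carried PV:Cre, which drives recombination in parvalbumin cells, with a Cre-dependent tdTomato reporter. The design describes the parvalbumin neurons left in these mutants as rapidly adapting low-threshold mechanoreceptors (RA-LTMRs), since proprioceptors are lost. Rx3+/+;PV:tdT neurons, called wild-type PV neurons, carried the same Cre and reporter with intact Runx3 and comprised proprioceptors and RA-LTMRs. The genotype labels name the reporter Ai14 and the design text names it Ai9. TrkC:GFP neurons, called TrkC neurons, came from mice with a bacterial artificial chromosome that expresses GFP in Runx3-positive TrkC neurons, and comprised proprioceptors and slowly adapting mechanoreceptors. Mutant PV samples were taken at postnatal day 3, 0 and 0 from 1, 1 and 4 animals. Wild-type PV samples were taken at day 6, 4 and 3 from 4, 3 and 3 animals, and TrkC samples at day 6, 2 and 1 from 4, 2 and 4 animals. Age and genotype thus differed together and cannot be told apart. In sorted bulk samples, fewer cells of a type and less RNA per cell cannot be told apart either, and the p-values measure only the spread between these samples.

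Clustered protocadherins are cadherin-family proteins of the neuronal surface that bind like proteins on neighbouring membranes and are known for self-avoidance of neurites and for neuronal survival. Every alpha and gamma gene has its own promoter and variable exon, which codes for the extracellular part and is spliced to constant exons shared by the whole cluster. Beta genes have a single variable exon and no shared constant exons. A neuron is known to use a small, largely random set of the alternate members, chosen through promoter methylation and through loops held by CTCF and cohesin. The C-type members lie at the end of the alpha and gamma arrays and are known to be used in a more regular, cell type dependent way.

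In the RefSeq annotation of GRCm38.p6 all 58 genes matched by gene ID and lay on chromosome 18, with the alpha cluster between 36930285 and 37188897, the beta cluster between 37264998 and 37521419 and the gamma cluster between 37661775 and 37841873. The 5 C-type genes, Pcdhac1 and Pcdhac2 in alpha and Pcdhgc3, Pcdhgc4 and Pcdhgc5 in gamma, were the last in the gene order of their clusters. The gene lengths behind the deposited RPKM values (reads per kilobase of gene, scaled to library size) show how the shared exons were counted. In alpha, Pcdha2 had a length of 5216 bases, which has room for the 3 constant exons of 2860 bases, and the other 13 genes had 2346 to 3835 bases. In gamma, Pcdhgb2 had 4482 bases, which has room for the 3 constant exons of 2119 bases, and the other 21 genes had 2364 to 2961 bases. Without the constant exons these 2 lengths leave 2356 bases for Pcdha2 and 2363 bases for Pcdhgb2, and the GENCODE M21 first exons of these genes span 2501 and 2542 bases. The exons counted are not listed in the files, so Pcdha2 and Pcdhgb2 are called long-model members below, whose counts may hold reads of the shared exons. Shared exons thus blur alpha and gamma values, those of the long-model members most directly. Pcdha11, with 3835 bases against a first exon of at most 2500 bases, is the only other alpha gene longer than the constant exons. The variable exons of a cluster are also alike in sequence, and the sources used here do not give how reads matching several of them were counted.

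Libraries held 12.8, 12.2 and 4.51 M counted reads in mutant PV neurons, 13.7, 12.2 and 11.6 M in wild-type PV neurons and 12.2, 10.5 and 7.78 M in TrkC neurons. These sizes and the reads per library were recovered from the deposited group values, and libraries are given from the deepest to the shallowest because they could not be tied to replicate numbers. Runx3 had 12.5, 16.6 and 11.3 RPKM in mutant PV libraries, against 34.6, 30.2 and 26.2 RPKM in wild-type PV libraries and 32.1, 34.1 and 35.0 RPKM in TrkC libraries. Runx3 was lower but not absent in mutant PV libraries, and reads counted over the whole gene do not show which part of it they come from, so they cannot show the loss of function. The summed level of 8 RA-LTMR markers was 405 to 456 RPKM in mutant PV libraries, against 127 to 159 RPKM in wild-type PV and 99.7 to 120.4 RPKM in TrkC libraries. Cntnap2 and Calb1 of this list went the other way. Their deposited values were 39.2 and 5.25 RPKM in mutant PV, 87.8 and 5.37 RPKM in wild-type PV and 79.2 and 9.72 RPKM in TrkC neurons. The 9 proprioceptor markers with recovered reads summed to 105 to 145 RPKM in mutant PV libraries, against 343 to 418 RPKM in wild-type PV and 534 to 634 RPKM in TrkC libraries. Of the listed proprioceptor markers, Pou4f3 went the other way, at 9.67 RPKM in mutant PV against 4.91 and 4.75 RPKM in wild-type PV and TrkC neurons. Other lists separated mutant PV libraries too. The 5 neuronal markers with recovered reads summed to 562 to 608 RPKM in mutant PV libraries, against 371 to 448 RPKM in wild-type PV and 456 to 521 RPKM in TrkC libraries. The sum of the deposited group values over all 8 listed neuronal markers went the other way. It was 3673 RPKM in mutant PV, 4796 RPKM in wild-type PV and 3937 RPKM in TrkC neurons. Snap25 gave the largest part of this sum, with 1807, 3537 and 2802 RPKM in the same order. Elavl4 and Isl1 were also lowest in mutant PV neurons, and Nefh lay between the other groups. Tubb3, Rbfox3, Pou4f1 and Prph were highest in mutant PV neurons. The 6 endothelial and mural markers summed to 3.18 to 7.75 RPKM in mutant PV libraries, against 1.05 to 1.88 RPKM in wild-type PV and 0.99 to 2.10 RPKM in TrkC libraries. The 7 nociceptor markers summed to 258 to 433 RPKM in mutant PV libraries, against 99.2 to 123.2 RPKM in wild-type PV and 54.7 to 106.2 RPKM in TrkC libraries. Among these 7, Tac1 and Trpv1 went the other way. Their deposited values were 42.2 and 0.048 RPKM in mutant PV, 68.8 and 0.18 RPKM in wild-type PV and 45.9 and 0.19 RPKM in TrkC neurons. The 12 markers of Schwann and satellite glia summed to 652 to 766 RPKM in mutant PV libraries, against 373 to 523 RPKM in wild-type PV and 345 to 678 RPKM in TrkC libraries, so that mutant PV and TrkC libraries overlapped for glia. The sums of fibroblast, immune, erythroid and muscle markers overlapped between mutant PV and wild-type PV libraries. Single fibroblast markers did differ there. The deposited edgeR test called 5 of the 6, with 4 lower in mutant PV and 1 higher, beside 16.4% of all genes. The higher one was Mgp, at 10.9 RPKM in mutant PV against 0.23 RPKM in wild-type PV neurons. TrkC libraries overlapped with mutant PV libraries for fibroblast, immune and erythroid markers, but not for muscle. The 4 muscle markers summed to 0.13 to 0.76 RPKM in mutant PV, 0.56 to 0.71 RPKM in wild-type PV and 1.72 to 3.33 RPKM in TrkC libraries. The 4 kidney markers had 937, 1162 and 5 reads in mutant PV libraries, against 11, 3 and 4 reads in wild-type PV and 34, 42 and 19 reads in TrkC libraries. The part of these other cell types in the differences below was not tested. Leaving out both kidney-read libraries leaves 1 mutant PV library, the one of 4.51 M reads, so fits without them take all their spread from the other groups and are given as values only.

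Every clustered protocadherin had reads in every group, and 57 of 58 had more than 3 reads per group. Pcdhb1 was the exception with 1, 3 and 2 reads over the mutant PV, wild-type PV and TrkC groups, at or under the floor of 3 reads, and no fold is given for it. The median deposited level over the 58 genes was 2.91 RPKM in mutant PV, 2.67 RPKM in wild-type PV and 3.43 RPKM in TrkC neurons, and 6, 6 and 7 genes reached 10 RPKM. All 3 populations thus expressed a long list of isoforms at low levels with few abundant ones. A gene was called where the adjusted p of the authors' deposited edgeR test, over all 23038 genes, was under 0.05. The deposited fold changes are those of TrkC or wild-type PV over mutant PV neurons, so a negative value means a higher level in mutant PV neurons.

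Mutant PV neurons differed from both other populations most clearly in the C-type isoforms, and in opposite directions for the 2 clusters that hold them. All 3 gamma C-type genes fell and both alpha C-type genes rose in mutant PV neurons, against wild-type PV and against TrkC neurons. By comparison, 5 of the 53 other members were called against wild-type PV neurons and 6 of 53 against TrkC neurons. Over the 58 members, 10 were called against wild-type PV neurons, where 16.4% of all genes were called, and 11 against TrkC neurons, where 10.1% of all genes were called. In single directions against wild-type PV neurons, 5 members were lower in mutant PV (7.82% of all genes) and 5 higher (8.57%). Against TrkC neurons, 7 were lower in mutant PV (5.87%) and 4 higher (4.2%). Beside all genes, which include many with few reads, the members were close to the background against wild-type PV neurons and above it against TrkC neurons. Without the C-type genes, 9.43% of members were called against wild-type PV neurons and 11.3% against TrkC neurons. Among 13026 genes with a mean of at least 1 CPM, limma called 10 of 57 members against wild-type PV neurons, beside 27.4% of these genes. Against TrkC neurons it called 16 of 57 members, beside 22.4%. The 2 comparisons share the mutant PV samples, and 8 members were called in both, 5 of them lower and 3 of them higher in mutant PV neurons. The share of all genes called in both is not given here, so this count is a description only.

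Pcdhgc3, the most abundant gamma C-type gene here, had 8.18, 5.73 and 6.99 RPKM in mutant PV libraries, against 28.2, 24.3 and 31.6 RPKM in wild-type PV libraries and 31.8, 23.0 and 35.0 RPKM in TrkC libraries. Every mutant PV library was far below every library of the other groups. The authors' deposited tables (edgeR) gave log2 fold changes of 2.00 for wild-type PV over mutant PV (adjusted p = 1.3e-17) and 2.09 for TrkC over mutant PV (adjusted p = 2.8e-14). Pcdhgc4, the gamma isoform that mice need for the survival of many neurons, had 4.07, 1.22 and 2.29 RPKM in mutant PV libraries, against 8.44, 10.7 and 7.53 RPKM in wild-type PV and 15.2, 11.2 and 16.0 RPKM in TrkC libraries. The groups were separate, with wild-type PV libraries between the mutant PV and TrkC libraries. Its log2 fold changes in the authors' deposited tables (edgeR) were 1.78 for wild-type PV over mutant PV (adjusted p = 3.7e-05) and 2.45 for TrkC over mutant PV (adjusted p = 7.7e-09). Pcdhgc5, a further gamma C-type isoform, rested on few reads, with 21, 22 and 4 in mutant PV libraries, against 58, 49 and 59 in wild-type PV libraries and 76, 77 and 92 in TrkC libraries. This was 0.63, 0.70 and 0.34 RPKM in mutant PV neurons, 1.63, 1.56 and 1.97 RPKM in wild-type PV neurons and 2.40, 2.82 and 4.57 RPKM in TrkC neurons. The 3 groups did not overlap for this gene either. The authors' deposited tables (edgeR) gave log2 fold changes of 1.46 for wild-type PV over mutant PV (adjusted p = 0.0078) and 2.38 for TrkC over mutant PV (adjusted p = 3.2e-05).

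Pcdhac2, the alpha C-type isoform known from the spacing of serotonergic axons in mice, had the highest mean of variable-exon members in all 3 populations. In the shallowest wild-type PV and TrkC libraries, Pcdhgc3 was above it. Pcdhac2 had 65.1, 61.2 and 70.4 RPKM in mutant PV libraries, against 33.1, 29.7 and 26.2 RPKM in wild-type PV and 40.0, 35.3 and 30.2 RPKM in TrkC libraries. Mutant PV libraries were above all others, while wild-type PV and TrkC libraries overlapped. In the authors' deposited tables (edgeR) the log2 fold change was -1.14 for wild-type PV over mutant PV (adjusted p = 4.3e-09) and -0.90 for TrkC over mutant PV (adjusted p = 1.7e-04). Pcdhac1, the other alpha C-type gene, had 7.96, 9.44 and 12.7 RPKM in mutant PV libraries, against 2.69, 1.35 and 3.02 RPKM in wild-type PV and 3.90, 2.34 and 3.06 RPKM in TrkC libraries. The mutant PV libraries again stood apart and the other groups overlapped. The log2 fold changes in the authors' deposited tables (edgeR) were -2.07 for wild-type PV over mutant PV (adjusted p = 4.3e-08) and -1.67 for TrkC over mutant PV (adjusted p = 1.8e-05). All 5 C-type genes were also called by limma on the recovered reads in both comparisons. This held under each setting that fitted the gene and kept at least 2 mutant PV libraries. Pcdhgc5 was not fitted in the setting with a mean of at least 5 CPM. In the 1 mutant PV library without kidney reads, the log2 fold changes against wild-type PV neurons were 1.97 for Pcdhgc3, 1.86 for Pcdhgc4, 1.83 for Pcdhgc5, -2.40 for Pcdhac1 and -1.25 for Pcdhac2 by limma. With all libraries, limma called 27.4% of the genes it tested between wild-type PV and mutant PV neurons and 22.4% between TrkC and mutant PV neurons.

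**Figure D1:**
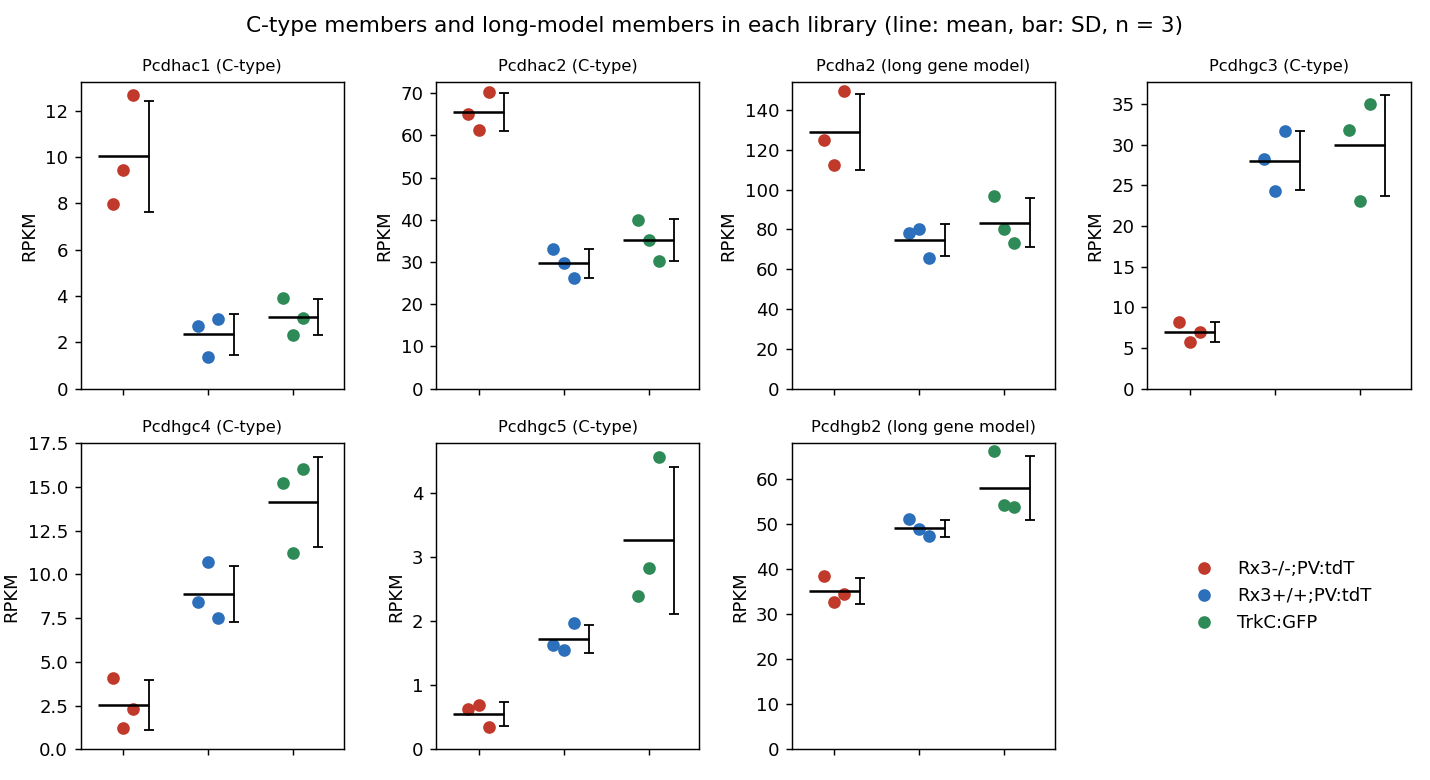
Level in RPKM (linear axis from 0) of the 5 C-type genes and both long-model members in each library, with mutant PV neurons on the left, wild-type PV neurons in the middle and TrkC neurons on the right of each panel; points are libraries, the line is the mean and the bar the SD (n = 3). Mutant PV libraries lie above all others for Pcdhac1, Pcdhac2 and Pcdha2 and below all others for Pcdhgc3, Pcdhgc4, Pcdhgc5 and Pcdhgb2.

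The long-model members followed the C-type genes of their clusters. Pcdha2, whose length has room for the alpha constant exons, had 125, 112 and 150 RPKM in mutant PV libraries, against 78.3, 80.3 and 65.5 RPKM in wild-type PV and 96.8, 80.2 and 73.3 RPKM in TrkC libraries. It was higher in all mutant PV libraries than in any other. Its log2 fold changes in the authors' deposited tables (edgeR) were -0.79 for wild-type PV over mutant PV (adjusted p = 1.1e-04) and -0.63 for TrkC over mutant PV (adjusted p = 0.018). Pcdhgb2, whose length has room for the gamma constant exons, had 38.3, 32.7 and 34.3 RPKM in mutant PV libraries, against 51.0, 48.9 and 47.2 RPKM in wild-type PV and 66.2, 54.1 and 53.6 RPKM in TrkC libraries. It was lower in all mutant PV libraries than in any other. The authors' deposited tables (edgeR) gave log2 fold changes of 0.48 for wild-type PV over mutant PV (adjusted p = 0.024) and 0.72 for TrkC over mutant PV (adjusted p = 0.0029). Without the deepest wild-type PV library, the limma adjusted p of Pcdhgb2 between wild-type PV and mutant PV was 0.052.

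Summed over the variable-exon members, the alpha cluster was higher and the gamma cluster lower in mutant PV neurons. The 13 alpha members other than Pcdha2 summed to 109 ± 9.36 RPKM in mutant PV neurons, against 58.9 ± 4.32 RPKM in wild-type PV and 72.4 ± 7.21 RPKM in TrkC neurons (SD, n = 3 each). The C-type pair made up most of that difference, with 75.6 ± 6.56 RPKM in mutant PV, 32.0 ± 3.42 RPKM in wild-type PV and 38.3 ± 5.39 RPKM in TrkC neurons. The other 11 alpha members summed to 33.0 ± 3.74 RPKM in mutant PV, 26.9 ± 0.91 RPKM in wild-type PV and 34.1 ± 4.49 RPKM in TrkC neurons, and here mutant PV and TrkC libraries overlapped. The 21 gamma members other than Pcdhgb2 summed to 87.1 ± 5.0 RPKM in mutant PV, 123 ± 2.26 RPKM in wild-type PV and 150 ± 25.4 RPKM in TrkC neurons. Of this, the 3 C-type genes gave 10.1 ± 2.65 RPKM in mutant PV, 38.6 ± 2.32 RPKM in wild-type PV and 47.3 ± 9.43 RPKM in TrkC neurons. The other 18 gamma members summed to 77.0 ± 6.35 RPKM in mutant PV, 83.9 ± 0.06 RPKM in wild-type PV and 103 ± 16.1 RPKM in TrkC neurons, with overlap between mutant PV and wild-type PV libraries. The 22 beta genes summed to 53.9 ± 6.24 RPKM in mutant PV, 59.1 ± 1.07 RPKM in wild-type PV and 67.7 ± 4.47 RPKM in TrkC neurons. Mutant PV and wild-type PV libraries overlapped for beta as well, while mutant PV libraries were all below TrkC libraries. These sums are descriptions, with no test.

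As a share of their cluster, without the long-model member, the C-type genes took 71.6, 67.6 and 69.6% of alpha RPKM in mutant PV libraries, against 56.2, 53.9 and 52.6% in wild-type PV and 54.6, 56.6 and 47.4% in TrkC libraries. In gamma they took 14.7, 8.3 and 11.8% in mutant PV libraries, against 31.3, 30.3 and 32.9% in wild-type PV and 31.0, 30.4 and 32.7% in TrkC libraries. Mutant PV libraries lay outside the range of both other groups in each cluster, and wild-type PV and TrkC libraries overlapped. The gamma C-type share thus spanned only 30.3 to 32.9% over the 6 libraries that contain proprioceptors by their labels.

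**Figure D2:**
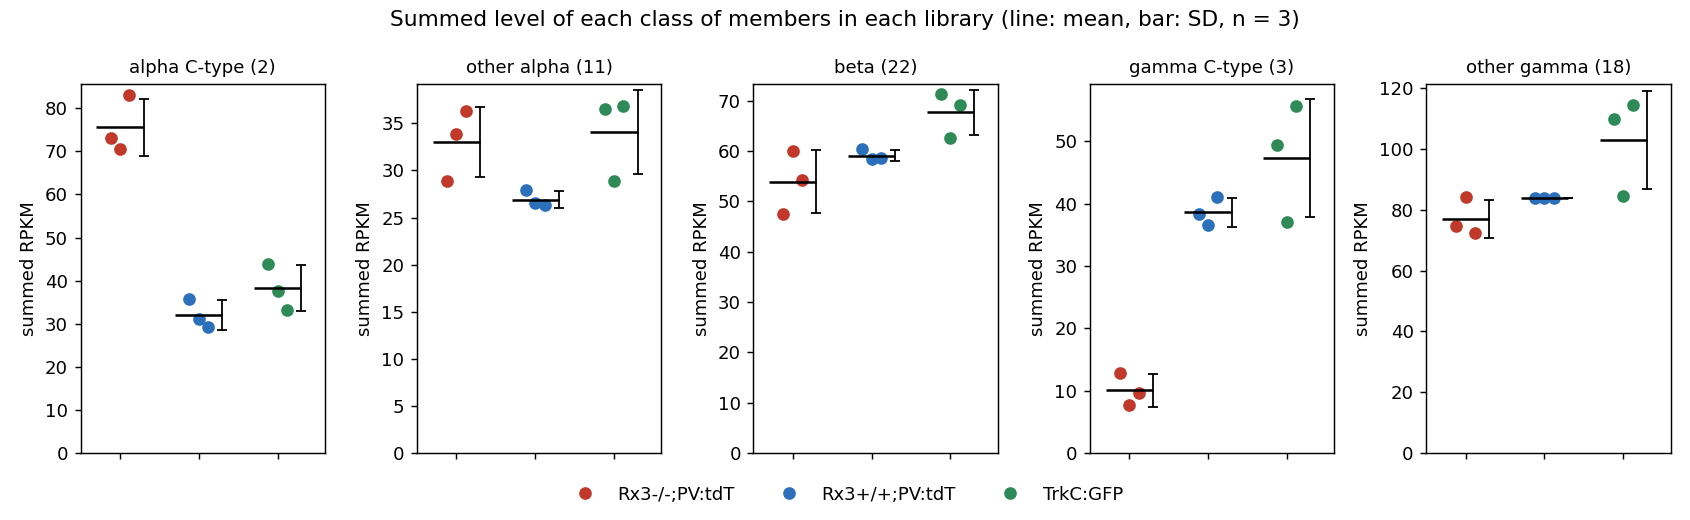
Summed RPKM (linear axis from 0) of the alpha C-type, other alpha, beta, gamma C-type and other gamma members in each library, without Pcdha2 and Pcdhgb2; points are libraries, the line is the mean and the bar the SD (n = 3). The C-type panels separate mutant PV libraries from all others, with means of 75.6 against 32.0 and 38.3 RPKM in alpha and 10.1 against 38.6 and 47.3 RPKM in gamma, while the other panels overlap between mutant PV libraries and at least 1 other group.

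Outside the C-type and long-model members, 6 genes were called against at least 1 other population, and only Pcdhb16 against both. Pcdhb16, a beta isoform, had 2.32, 5.58 and 4.29 RPKM in mutant PV libraries, against 8.22, 8.67 and 6.66 RPKM in wild-type PV and 9.78, 9.44 and 7.80 RPKM in TrkC libraries. It was the most abundant beta gene in the groups with proprioceptors and was lower in every mutant PV library. The log2 fold changes in the authors' deposited tables (edgeR) were 0.95 for wild-type PV over mutant PV (adjusted p = 0.010) and 1.15 for TrkC over mutant PV (adjusted p = 0.0031). Without the second wild-type PV library, the limma adjusted p for Pcdhb16 against wild-type PV was 0.058.

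Pcdhb6, another beta isoform, had 3.09, 3.19 and 2.10 RPKM in mutant PV libraries, against 2.07, 0.92 and 1.64 RPKM in wild-type PV and 0.92, 0.98 and 0.89 RPKM in TrkC libraries. The authors' deposited table (edgeR) gave a log2 fold change of -1.56 for TrkC over mutant PV (adjusted p = 0.0073) and of -0.86 for wild-type PV over mutant PV, which was not called (adjusted p = 0.16). All mutant PV libraries were above the other 6, although the lowest of them was close to the highest wild-type PV library. With the 1 mutant PV library without kidney reads alone, the limma log2 fold change of Pcdhb6 for TrkC over mutant PV was -1.02, against -1.37 with all libraries (adjusted p = 0.10 and 0.0097 in limma).

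Among alternate gamma isoforms, Pcdhga9 had 0.98, 2.08 and 1.45 RPKM in mutant PV libraries, against 2.07, 3.31 and 2.02 RPKM in wild-type PV and 4.33, 3.57 and 4.73 RPKM in TrkC libraries. Only the TrkC libraries were separate from the mutant PV ones, with a log2 fold change of 1.45 for TrkC over mutant PV by the authors' deposited table (adjusted p = 0.0070 from edgeR). Pcdhga6 had 10.02, 12.9 and 13.9 RPKM in mutant PV libraries, against 15.3, 19.5 and 15.5 RPKM in wild-type PV and 24.4, 16.9 and 22.1 RPKM in TrkC libraries. It was lower in all mutant PV libraries and was called for TrkC over mutant PV (log2 fold change 0.79, edgeR adjusted p = 0.016) in the authors' deposited table. For wild-type PV over mutant PV the authors' deposited table gave 0.45 (adjusted p = 0.17 from edgeR). The limma adjusted p of Pcdhga6 was 0.051 without the deepest TrkC library. With the 1 mutant PV library without kidney reads alone, its limma log2 fold change was 0.58 (adjusted p = 0.094), against 0.77 with all libraries. Pcdhgb5 had 7.15, 4.61 and 3.50 RPKM in mutant PV libraries, against 2.57, 2.702 and 2.30 RPKM in wild-type PV and 3.64, 2.45 and 4.27 RPKM in TrkC libraries. It was called higher in mutant PV than in wild-type PV neurons (log2 fold change of wild-type PV over mutant PV -1.02, edgeR adjusted p = 0.023, in the authors' deposited table), a call that limma kept in 7 of 15 settings.

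In the alpha cluster, Pcdha11 had 6.37, 7.09 and 8.56 RPKM in mutant PV libraries, against 4.76, 4.66 and 4.71 RPKM in wild-type PV and 6.40, 5.02 and 5.53 RPKM in TrkC libraries. It was called for wild-type PV over mutant PV (log2 fold change -0.63, edgeR adjusted p = 0.042, in the authors' deposited table), and lost the call by limma when any wild-type PV library was left out (highest adjusted p = 0.067). The remaining abundant members were not called. Pcdha9 had 6.16, 7.47 and 8.99 RPKM in mutant PV libraries, against 5.99, 5.67 and 5.11 RPKM in wild-type PV and 7.31, 5.72 and 6.38 RPKM in TrkC libraries. Pcdhb17 had 6.14, 8.42 and 4.07 RPKM in mutant PV libraries, against 6.17, 5.99 and 6.71 RPKM in wild-type PV and 7.30, 5.86 and 7.63 RPKM in TrkC libraries, and the groups overlapped. Pcdhb22 had 4.42, 3.48 and 6.58 RPKM in mutant PV libraries, against 4.27, 4.11 and 4.03 RPKM in wild-type PV and 5.52, 4.39 and 6.92 RPKM in TrkC libraries, again with the mutant PV range covering the wild-type PV range. In all, 13 members were called in a pairwise comparison and 45 in none, and a missing call does not show that those 45 were equal between the groups.

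By cluster, the calls against TrkC neurons were 3 alpha genes higher in mutant PV, 1 beta gene higher and 1 lower, and 6 gamma genes lower. Against wild-type PV neurons, 4 alpha genes were higher in mutant PV, 1 beta gene lower, and 4 gamma genes lower and 1 higher. The median log2 fold change over the 58 members was 0.35 for TrkC over mutant PV neurons, where all genes had a median of 0 and those with a mean log2 CPM above 0 a median of 0.08. For wild-type PV over mutant PV neurons it was 0.05, beside -0.05 for all genes with a mean log2 CPM above 0. Without overlap between libraries, 23 of 57 members with a mean of at least 1 CPM differed between TrkC and mutant PV neurons, where 34.3% of all such genes did, and 18 of 57 between wild-type PV and mutant PV neurons, where 43.1% did. In the comparison of mutant PV neurons with TrkC and wild-type PV neurons pooled, which uses the same samples, 11 of 58 members were called (16.8% of all genes), 7 of them lower in mutant PV (8.82%) and 4 higher (7.96%).

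Wild-type PV and TrkC neurons, which share proprioceptors, were separated by few calls in these genes. Only Pcdhgc4 was called, at a log2 fold change of -0.67 for wild-type PV over TrkC and an edgeR adjusted p of 0.043 in the authors' deposited table, where 2.78% of all genes were called (2.08% lower and 0.699% higher in wild-type PV). Limma, which called 0.299% of the genes it tested in this comparison, did not call it in any of its 15 settings (adjusted p = 0.12 to 0.98). Of the 58 members, 51 were on the lower side in wild-type PV neurons with a median log2 fold change of -0.25, beside 63.3% of all genes with a mean log2 CPM above 0 on that side and a median of -0.10. Summed levels of the other alpha, beta and other gamma members were also lower in wild-type PV, without overlap between libraries when scaled to library size. The gap was narrow for other gamma, with at most 83.96 RPKM in wild-type PV and at least 84.63 RPKM in TrkC libraries. Median-of-ratios size factors over library size were 0.97 to 0.98 in wild-type PV and 1.01 to 1.07 in TrkC libraries. Overlap of these sums under that scaling was not tested. The means of the 3 sums were 26.9, 59.1 and 83.9 RPKM in wild-type PV and 34.1, 67.7 and 103 RPKM in TrkC neurons. The C-type sums overlapped in both clusters. Libraries did not overlap for 13 of 57 members, all lower in wild-type PV, where 25.3% of all genes with a mean of at least 1 CPM did not overlap and 17.5% were lower without overlap. Over the 53 members other than the C-types, the deposited edgeR test called 0, with 9 at an unadjusted p under 0.05, and limma called 0, with 4 at an unadjusted p under 0.05. For TrkC over both PV groups together the deposited edgeR test called 0 of 58 members (0.456% of all genes, with 0.169% higher and 0.286% lower in TrkC), with 9 at an unadjusted p under 0.05.

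The alternate members varied widely between mutant PV libraries, in ways that differed from gene to gene. Pcdhga5 had 66, 311 and 19 reads in mutant PV libraries, or 5.14, 25.6 and 4.21 CPM (reads scaled to library size), against 15.7, 15.1 and 15.3 CPM in wild-type PV and 19.8, 14.2 and 17.2 CPM in TrkC libraries. Pcdhga1 had 0.62, 4.27 and 10.2 CPM in mutant PV libraries, against 8.08, 7.74 and 9.25 CPM in wild-type PV and 12.9, 8.16 and 7.84 CPM in TrkC libraries. Pcdha6 had 6.15, 4.19 and 0.67 CPM in mutant PV libraries, against 4.22, 3.95 and 4.75 CPM in wild-type PV and 6.63, 4.37 and 6.43 CPM in TrkC libraries. The library with the highest level thus differed between these 3 isoforms, the 3 members with the largest SD between mutant PV libraries on the log2 scale. Over the 50 members other than the C-type and long-model genes and Pcdhb1, 22 differed more than 2-fold between mutant PV libraries (44%), 1 between wild-type PV libraries (2%) and 4 between TrkC libraries (8%). All 8277 genes in the same range of mean CPM (1.61 to 42.99) did so in 33.4% of cases in mutant PV, 5.82% in wild-type PV and 13.7% in TrkC neurons. The median SD of log2(CPM + 0.5) over the 50 members was 0.48 in mutant PV, 0.22 in wild-type PV and 0.25 in TrkC neurons, beside 0.39, 0.19 and 0.25 for the 8277 genes in the same order. The wide spread in mutant PV neurons was therefore shared by genes at large, with a somewhat larger share of members than of other genes over 2-fold. Mutant PV samples include 2 from single animals and the shallowest library, and the part of either in this spread was not tested.

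**Figure D3:**
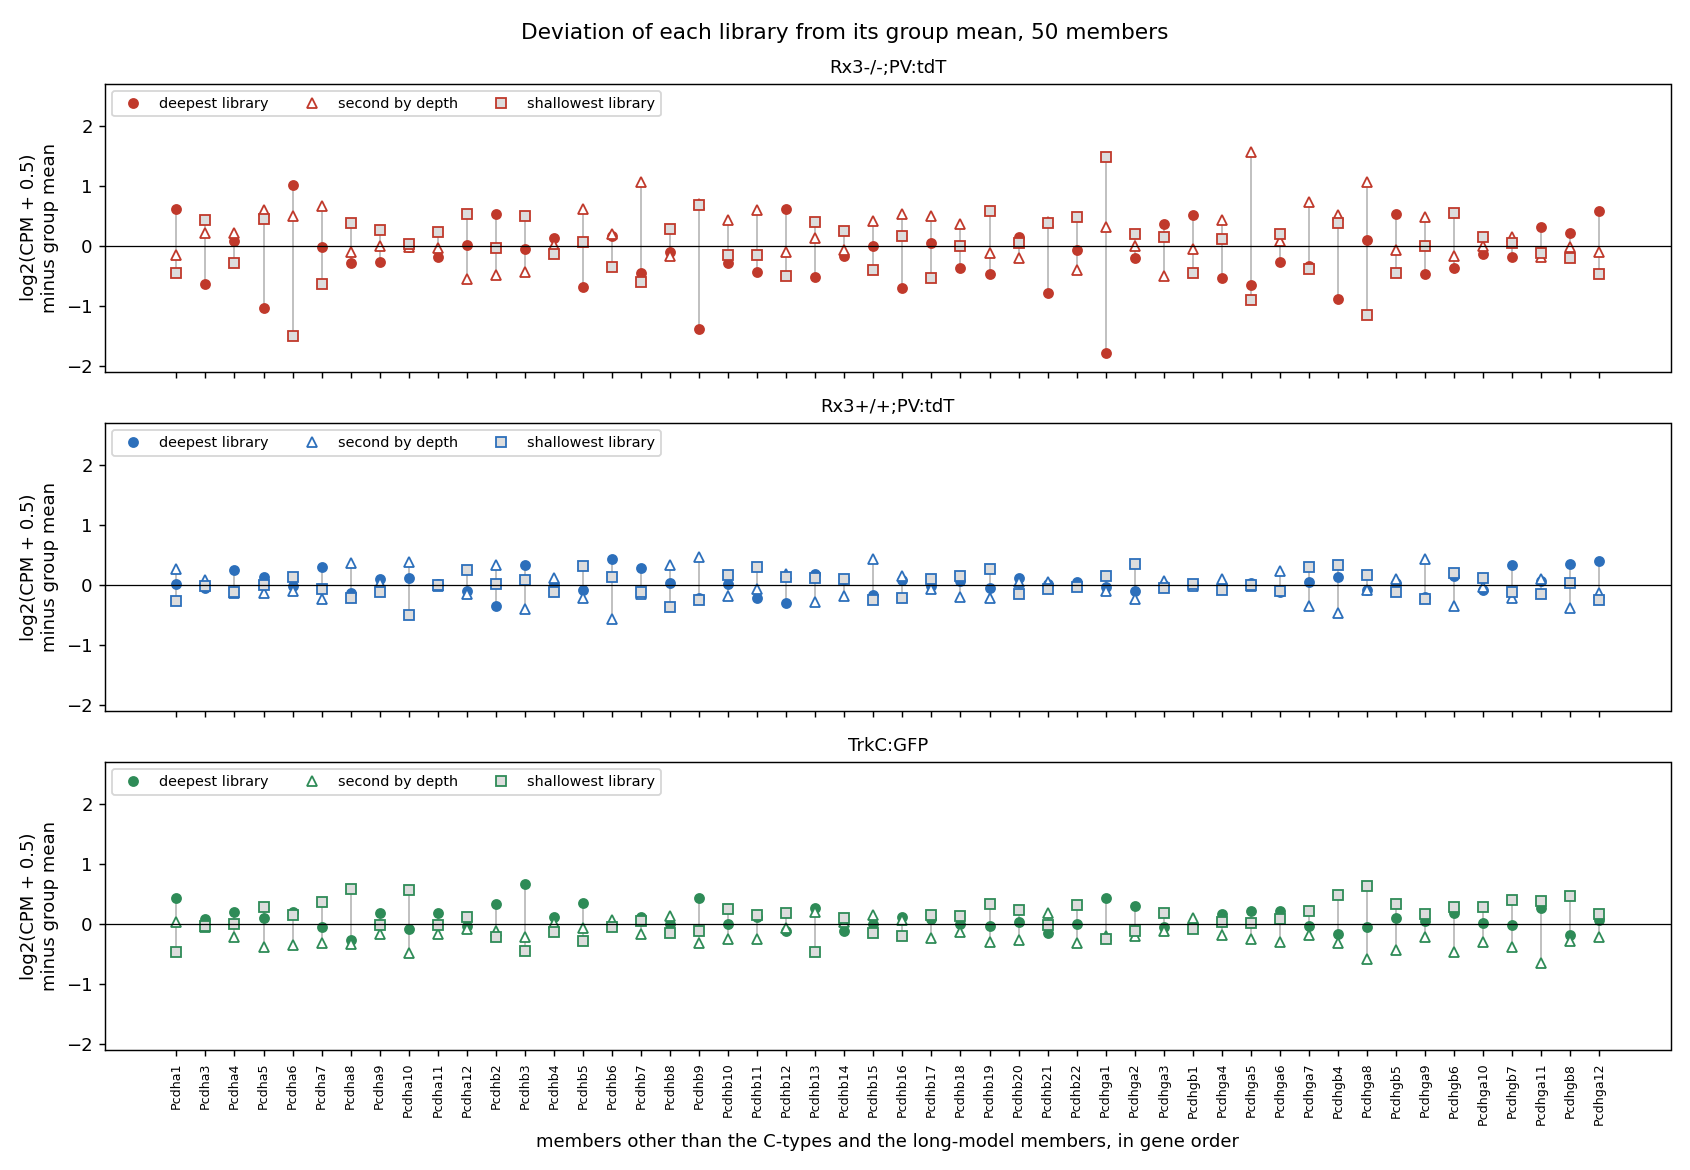
Deviation of each library from its group mean in log2(CPM + 0.5), for 50 members in gene order, with mutant PV neurons in the upper, wild-type PV neurons in the middle and TrkC neurons in the lower panel; symbols give the library by depth and the grey line its range. The mutant PV panel is the widest, with 22 of 50 members over 2-fold between libraries, against 1 in wild-type PV and 4 in TrkC neurons.

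Of 28 measured regulators of clustered protocadherin promoters, 3 were called against wild-type PV neurons and 2 against TrkC neurons by the deposited edgeR test, all of them lower in mutant PV neurons. Over all genes the shares called were 16.4% and 10.1% in either direction, and 7.82% and 5.87% lower in mutant PV. Over both directions the regulators were thus called no more often than genes at large. In the lower direction alone their share was slightly higher, on counts of 3 and 2 genes. Limma called 6 against wild-type PV neurons, 5 of them lower in mutant PV and 1 higher, and 3 against TrkC neurons, all lower in mutant PV. Ctcf, the zinc-finger protein that anchors the promoter loops, had 6.96, 8.51 and 9.45 RPKM in mutant PV libraries, against 12.9, 12.4 and 11.5 RPKM in wild-type PV and 15.6, 11.2 and 13.1 RPKM in TrkC libraries. All mutant PV libraries were below the others. The authors' deposited tables (edgeR) gave log2 fold changes of 0.57 for wild-type PV over mutant PV (adjusted p = 0.043) and 0.68 for TrkC over mutant PV (adjusted p = 0.048). Pds5b, a cohesin regulator, was at 0.66 (adjusted p = 0.0015) and 0.62 (adjusted p = 0.023) in the same 2 deposited edgeR comparisons of the authors' tables. Dnmt3a, a de novo DNA methyltransferase, was called only for wild-type PV over mutant PV, with a log2 fold change of 0.87 and an edgeR adjusted p of 1.6e-04 in the authors' deposited table, and was at 0.52 for TrkC over mutant PV (adjusted p = 0.11). Smchd1, a chromatin protein that represses clustered protocadherin genes in mice, was not called by the deposited edgeR test (adjusted p = 0.067 for wild-type PV over mutant PV) but was by limma (adjusted p = 0.029), with 7.90, 9.70 and 7.86 RPKM in mutant PV libraries, against 10.9, 12.0 and 12.2 RPKM in wild-type PV and 11.6, 9.09 and 10.5 RPKM in TrkC libraries. Between wild-type PV and TrkC neurons 0 regulators were called by the deposited edgeR test or by limma, with 4 at an unadjusted p under 0.05 by each.

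Of 32 measured partners and effectors, 9 were called against wild-type PV neurons (4 lower and 5 higher in mutant PV) and 5 against TrkC neurons (2 lower and 3 higher in mutant PV), where 16.4% and 10.1% of all genes were called. By direction the shares over all genes were 7.82% lower and 8.57% higher against wild-type PV neurons, and 5.87% lower and 4.2% higher against TrkC neurons. The receptor kinase Ret, which is known to bind clustered protocadherins and also marks RA-LTMRs, had 206, 179 and 248 RPKM in mutant PV libraries, against 41.5, 17.5 and 38.8 RPKM in wild-type PV and 11.5, 15.7 and 6.83 RPKM in TrkC libraries. Ret was higher in mutant PV than in both other groups, with log2 fold changes of -2.69 for wild-type PV over mutant PV (edgeR adjusted p = 1.5e-19) and -4.21 for TrkC over mutant PV (edgeR adjusted p = 1.7e-42) in the authors' deposited tables. The co-receptors Gfra1 and Gfra2 also rose in mutant PV neurons, with Gfra1 at -2.33 and -2.79 and Gfra2 at -1.21 and -1.64 in the same deposited tables of the authors. The related Gfra3 had 0.23, 0.99 and 2.11 RPKM in mutant PV libraries, against 4.09, 2.97 and 1.95 RPKM in wild-type PV and 4.60, 1.33 and 4.19 RPKM in TrkC libraries, with overlap. Its log2 fold changes of 1.47 for wild-type PV and 1.61 for TrkC over mutant PV were not called in the authors' deposited tables (edgeR adjusted p = 0.11 and 0.17), while that for both groups pooled was (1.55, adjusted p = 0.048). Of the effectors, Cyfip2, a subunit of the WAVE complex that binds protocadherin tails, was lower in mutant PV neurons in both comparisons, at 0.93 and 0.76 in the authors' deposited tables. Dscam, another self-avoidance receptor, was also lower in both, at 0.66 and 0.61 in the authors' deposited tables. Nckap1 and Wasf3, further WAVE subunits, were called lower in mutant PV than in wild-type PV neurons alone, and Marcks, an actin-binding substrate of protein kinase C, was called higher, each in the authors' deposited table. Dscaml1, called higher in mutant PV than in wild-type PV neurons, rested on 12, 23 and 0 reads in mutant PV libraries, all of them in the 2 libraries with kidney reads. Between wild-type PV and TrkC neurons, Ret was called higher in wild-type PV (log2 fold change 1.52) and Wasf2 lower (-0.75) in the authors' deposited table, while limma called 0 of 29 partners and effectors there, with 3 at an unadjusted p under 0.05.

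Non-clustered protocadherins, single genes outside the arrays, changed in both directions. Of 13 measured, 5 were called against wild-type PV neurons (3 lower and 2 higher in mutant PV) and 5 against TrkC neurons (2 lower and 3 higher in mutant PV), beside 16.4% and 10.1% of all genes. Pcdh8, a delta protocadherin, had 0, 0 and 0.055 RPKM in mutant PV libraries, against 2.09, 2.88 and 2.46 RPKM in wild-type PV and 2.31, 1.47 and 2.18 RPKM in TrkC libraries. Its reads were thus nearly absent from mutant PV neurons, and the authors' deposited tables (edgeR) gave adjusted p values of 3.9e-20 and 5.6e-13 against wild-type PV and TrkC neurons. Pcdh11x was lower in mutant PV neurons, with 7.87, 10.7 and 9.39 RPKM in mutant PV libraries, against 30.9, 30.4 and 33.6 RPKM in wild-type PV and 28.0, 23.2 and 27.6 RPKM in TrkC libraries. Pcdh17 was higher, with 20.9, 17.1 and 20.2 RPKM in mutant PV libraries, against 9.26, 5.10 and 8.01 RPKM in wild-type PV and 7.77, 6.29 and 6.33 RPKM in TrkC libraries. Pcdh1 was higher in mutant PV neurons in both comparisons, at log2 fold changes of -1.19 for wild-type PV and -1.01 for TrkC over mutant PV in the authors' deposited tables. Pcdh10 was called lower in mutant PV than in wild-type PV neurons alone and Cdhr1 higher than in TrkC neurons alone, in the authors' deposited tables. Between wild-type PV and TrkC neurons 0 of the 13 were called by the deposited edgeR test, with 3 at an unadjusted p under 0.05, and by limma 0 were called, with 0 at an unadjusted p under 0.05.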

How the data were processed

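Neurons were sorted from dissociated DRG, and per the labels' protocols amplified cDNA was sequenced from poly-A selected, single-end libraries. The authors mapped to mm10 and used edgeR, both per the submitters' processing notes, and no source used here gives the aligner, the counter or a version. The authors deposited 5 comparison tables that hold, for every gene, p-values (raw and adjusted), the log2 fold change, the mean log2 level in CPM, a flag (-1, 0 or 1) and group RPKM. The deposited RPKM values printed with 15 digits equalled the mean over 3 libraries of reads plus 1, scaled by gene length and library size. Solving this for whole numbers gave the gene length and the reads per library for 22812 genes (99%), among them all 58 members. Where no value per library is given, values are the authors'. Per-library RPKM and CPM were computed from these reads, without the added read. TrkC:GFP values stand in columns named Rx3, a name that does not match the group, and were assigned by the tables' names.

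Calls use the authors' deposited edgeR adjusted p under 0.05 (Benjamini-Hochberg). limma 3.58.1 (R 4.3.3, trend) on log2(CPM + 0.5) over 13026 genes with a mean of at least 1 CPM was added after the data were seen, with variants. Reads of the amplified cDNA carry no molecular identifiers, so a count of reads is not a count of molecules. Steps were tested on simulated data. The named genes are the C-types, the 3 highest members of each cluster, the called members and, from the lists, called genes with Ctcf, Smchd1 and Ret. Pcdhga5, Pcdhga1 and Pcdha6 were chosen after their values were seen. The members, the regulator, partner and marker lists and the rules were chosen with earlier results of these data known. Wapl, Lsh, Znf143, Brk1, Pcdh21 and Ren1 had no row under these names.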

Additional observations from a re-analysis of the deposited data

How the results depend on the processing

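No paired analysis was possible because the recovered libraries cannot be tied to replicate numbers. The plan named edgeR's quasi-likelihood test for counts per sample, which was not run on the recovered reads. Limma was used on them instead, with median-of-ratios scaling among its settings. No called member reversed its direction under any setting. Of 22 calls of a member in a pairwise comparison, 21 were also called by limma with all libraries and 15 under every limma setting in which the gene was fitted. Limma called 16 members against TrkC neurons (22.4% of all genes tested), 10 against wild-type PV neurons (27.4%) and 0 between wild-type PV and TrkC neurons (0.299%). Without both mutant PV libraries with kidney reads it called 16 and 12 members, in a fit that holds 1 mutant PV library, assumed to vary like the other groups, and so supports no call. Leaving out 1 library at a time gave 11 to 18 members against TrkC, the highest without the second or the shallowest mutant PV library, 7 to 14 against wild-type PV, and 0 to 0 between wild-type PV and TrkC neurons. With a minimum fold of 2, the deposited test called 7 members against TrkC, 6 against wild-type PV and 0 between wild-type PV and TrkC neurons. An adjusted p under 0.01 left 6 against wild-type PV and 0 between wild-type PV and TrkC neurons. The authors' flag marked 7 against TrkC, 5 against wild-type PV, 0 between wild-type PV and TrkC neurons and 6 in the pooled comparison. In every limma setting, 0 members were called between wild-type PV and TrkC neurons. Leaving out 1 library at a time, the median log2 fold change of members was 0.28 to 0.57 for TrkC over mutant PV, 0.0035 to 0.27 for wild-type PV over mutant PV and -0.33 to -0.19 for wild-type PV over TrkC. Centring on genes with a mean log2 CPM above 5 gave a median of -0.00098 for wild-type PV over mutant PV, so its sign is not settled. The cause of these shifts was not tested. Genes with few reads, such as Pcdhgc5 and Pcdhb1, are limited by depth, most of all in the mutant PV library of 4.51 M reads.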
